A study of Mus musculus with 6 samples.

Results

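The genes described here encode the protein parts of the spliceosome and its commonest regulators: SR and Tra2 proteins, hnRNPs, U2AF and PTB, the SF3A and SF3B subunits, Sm and LSm proteins, snRNP-specific proteins and the PRPF factors. They were chosen by gene symbol alone, through the families' shared name stems. The stems matched 85 of the 18193 genes that the array reads with probe sets of a single symbol, and 83 of the 85 were bright enough to be tested. Another 8 mouse genes of these names, among them Snrpa, Snrpd1, Snrpd2 and Srsf7, lacked such a probe set and were not analysed here.

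RNA came from adult mice of 6 to 12 weeks, males and females, of the BAC transgenic line Slc6a4 JD60 on a mixed FVB and c57/bl6j background. In this line a tagged ribosomal protein is made under Slc6a4 regulatory sequence, so that translating ribosomes of serotonin neurons can be pulled out of a lysate (translating ribosome affinity purification, TRAP). The 3 IP samples held this purified RNA, and the 3 unbound samples held RNA of the same lysates after the purification, which represents the whole dissected midbrain and brainstem without cerebellum. Each sample pooled 5 mice, all mice carried the transgene, and all came from 1 line. Because IP and unbound RNA differ both in cell type and in being ribosome-bound, the 2 sources of a difference cannot be told apart. Likewise, in such bulk RNA, fewer cells of a type and less RNA per cell cannot be told apart.

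Introns are removed by the spliceosome, whose snRNPs each consist of a small nuclear RNA, a ring of Sm or LSm proteins and proteins specific to that particle. SR proteins mostly promote the use of nearby splice sites, while hnRNPs coat nascent RNA and often repress them, and neurons use both groups to set the neuronal pattern of alternative exons. Several of these genes, above all those of SR proteins and hnRNPs, also control their own transcripts through exons or retained introns that lead to nuclear retention or decay.

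All values below are log2 expression values, and a change is the IP mean minus the unbound mean after the IP arrays were shifted to match the hybridisation controls. A gene was called when limma's adjusted p, over all 10581 tested genes, was under 0.05 and the change was at least 2-fold. The targeted gene Slc6a4 read 14.33, 14.10 and 14.18 in IP and 8.99, 9.13 and 9.04 in unbound RNA, a change of 5.15 ± 0.09 (SE, n = 3 per group, limma adjusted p = 3.73e-07). All 8 serotonin neuron markers were called higher, with a summed level of 16.78 to 17.0 in IP against 11.88 to 12.19 in unbound RNA. Markers of other neurons (8 of 8 tested), astrocytes (9 of 9), oligodendrocytes (8 of 8) and vessels (5 of 5) were called lower, and so were 5 of 6 microglial markers, with 1 called higher. Some of these lists kept clear signal in IP RNA: the oligodendrocyte sum lay between 14.02 and 14.59 against 16.17 to 16.39. All 8 vascular markers were below the detection limit of log2 5 on every IP array, as were 5 microglial, 5 astrocyte, 4 other-neuron and 2 oligodendrocyte markers. Such a marker was tested only if every unbound array reached the limit, so it could only come out lower. This held for every vascular marker tested. The part of these cells in the results below was not tested. The median change of all tested genes was -0.65, so each group is also given relative to that median.

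The promoters of members called in opposite directions are set out here because both directions occur within this one machinery. Each run below is the 120 bases before a RefSeq transcription start on GRCm38.p6, read along the gene's strand, with capitals for a match to the ETS core CCGGAAG or the NRF1 core CGCATGCG on either strand. Snrpb2 and Snrpf were called higher in IP RNA, and Hnrnph1 and Prpf4b lower. For Hnrnph1, 1 of its 5 RefSeq start windows is shown, the one that held the NRF1 letters.
Snrpb2, chr2:143062949-143063068, plus strand: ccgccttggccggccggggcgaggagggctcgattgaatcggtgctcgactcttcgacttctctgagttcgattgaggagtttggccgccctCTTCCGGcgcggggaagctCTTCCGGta
Snrpf, chr10:93589659-93589778, minus strand: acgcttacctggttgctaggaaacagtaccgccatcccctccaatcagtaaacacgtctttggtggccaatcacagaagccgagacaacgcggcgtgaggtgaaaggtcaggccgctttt
Hnrnph1, chr11:50377558-50377677, plus strand: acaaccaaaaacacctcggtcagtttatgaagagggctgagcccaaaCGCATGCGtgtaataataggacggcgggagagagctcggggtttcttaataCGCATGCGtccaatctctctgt
Prpf4b, chr13:34875409-34875528, plus strand: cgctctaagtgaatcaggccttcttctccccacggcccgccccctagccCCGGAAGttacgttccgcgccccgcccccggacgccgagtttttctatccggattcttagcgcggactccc
The ETS letters occur in Snrpb2 and in Prpf4b, and Snrpf holds neither motif in this window.

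Over windows from 250 bases before to 50 after the start, 71 tested members had 92 windows in the RefSeq table, and 26 of these (28.3%) held CCGGAAG, against 16.8% of the 11248 windows of all tested genes. The ETS letters stood in 3 of 7 windows of members called higher and in 11 of 32 windows of members called lower. The NRF1 letters CGCATGCG were found in 8.70% of member windows and 3.74% of all tested windows, and the YY1 core AAGATGGC in 5.43% and 4.41%. TATAAA was present in 7.61% of member windows and 7.0% of all tested windows, the E-box CACGTG in 8.70% and 9.94%, and the GC box GGGCGG in 69.6% and 62.5%. No motif contained another, both strands were searched, and windows of 1 gene can overlap. These matches describe letters in a window and were not tested.

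Of the 83 tested members, 8 were called higher in IP RNA (9.64%, against 10.4% of all tested genes) and 24 lower (28.9%, against 41.1%). The remaining 51 were not called. The members' median change was -0.58, close to the -0.65 of all tested genes, and 44 of 83 lay above that median. Changes were above 0 for 29 of the 83 members and for 3366 of all 10581 tested genes. IP values lay above all unbound values for 19 members and below them for 46, with overlap for the other members. That count was not made over all tested genes, so it cannot set the members apart from them. Medians of the 8 role groups ran from -0.92 to 0.78, so the overall median hides groups on both sides of it.

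**Figure D1:**
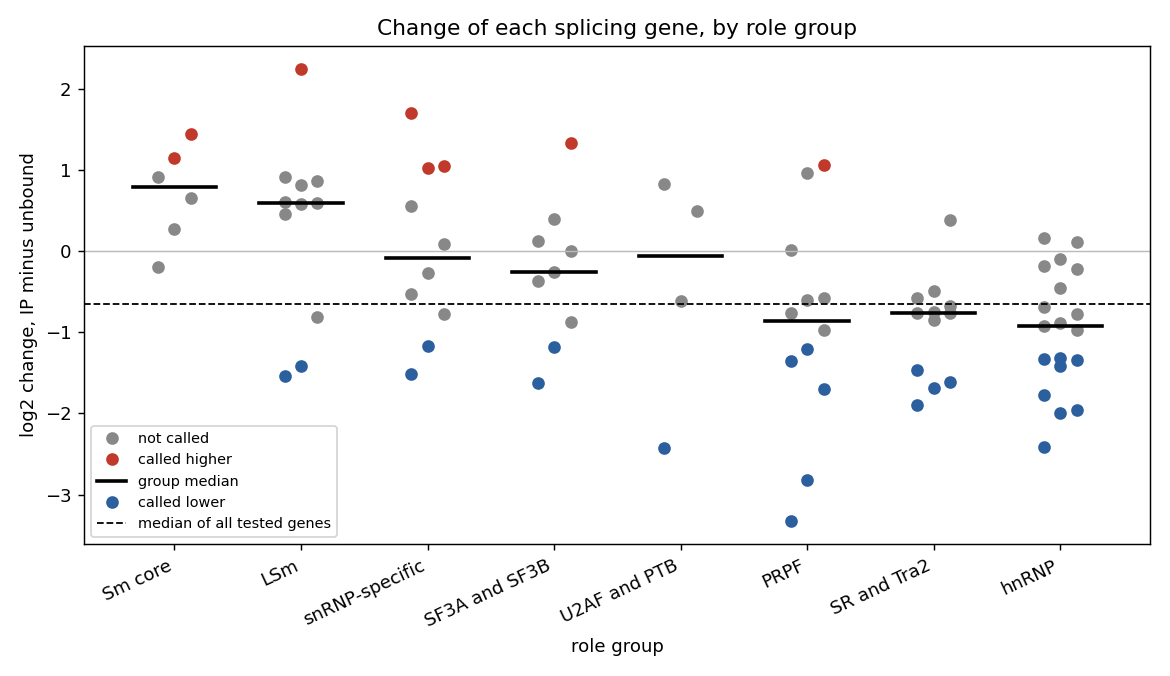
Log2 change from unbound to IP RNA (y axis) of the 83 tested splicing genes, 1 point a gene, in 8 role groups (x axis); bars are group medians and the dashed line is the median of all tested genes. Sm core and LSm genes sit highest, with medians of 0.78 and 0.59, and the hnRNPs lowest, with a median of -0.92.

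The Sm core proteins, which form the ring around most spliceosomal snRNAs, had the highest median of the 8 groups: 0.78, or 1.43 above that of all tested genes; it was negative only with the poly-A scaling (-1.89). Of 6 tested genes, 2 were called higher (33.3%, beside 10.4% of all tested genes) and none lower (beside 41.1%). Of the 6 changes, 5 were positive, beside 3366 of all 10581 tested genes. These counts rest on each gene's brightest probe set. For Snrpd3 the brightest changed by 0.27, while others changed by -1.06, called lower (limma adjusted p = 0.00799), and by -0.22, not called. The probe sets of Snrpd3 differed (limma diffSplice adjusted p = 0.00348). Tested singly, 3 of 10 Sm core probe sets were called higher and 1 lower, beside 1748 and 7233 of all 16835. Snrpf read 12.87, 12.68 and 12.87 in IP RNA and 11.28, 11.38 and 11.45 in unbound RNA. Every IP array thus lay above every unbound array, a 2.71-fold difference (change 1.44 ± 0.09, SE, limma adjusted p = 2.46e-05). Snrpg, another subunit of the ring, read at 14.65, 14.34 and 14.44 in IP and 13.45, 13.15 and 13.37 in unbound RNA, was 2.22-fold higher (1.15 ± 0.12, limma adjusted p = 0.000239). Snrpe, from the same ring, differed in the same direction by 0.91 and passed the p threshold (limma adjusted p = 0.000357) but not the 2-fold one.

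Snrpn and Snrpb encode near-identical Sm proteins, Snrpn from an imprinted locus that is most active in neurons and Snrpb in most tissues. Snrpn read 9.68, 9.17 and 9.26 in IP and 8.67, 8.64 and 8.83 in unbound RNA. The groups did not overlap, and the change of 0.66 ± 0.15 (limma adjusted p = 0.00779) stayed below 2-fold. Snrpb read 10.90, 11.50 and 11.24 in IP and 11.20, 11.59 and 11.42 in unbound RNA. These ranges overlapped, and the change of -0.19 ± 0.18 (limma adjusted p = 0.371) did not pass the test. The difference between the 2 changes was not tested, and the Snrpn span holds other genes, among them Snurf and Snhg14, whose RNA its probe set may also read.

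Among the 10 tested snRNP-specific proteins, 3 were called higher (30%, beside 10.4% of all tested genes) and 2 lower (20%, beside 41.1%). Their median was -0.09 (0.56 above all tested genes). Snrnp25, a protein of the minor spliceosome's U11/U12 particle, rose 3.26-fold: 12.38, 12.05 and 12.05 in IP against 10.67, 10.48 and 10.23 in unbound RNA (1.70 ± 0.15, limma adjusted p = 9.73e-05). Snrpb2, the U2 protein B″, read 10.76, 10.61 and 10.76 in IP and 9.70, 9.55 and 9.72 in unbound RNA (1.05 ± 0.09, limma adjusted p = 7.47e-05). Both genes were higher on every IP array, whereas the partner of Snrpb2 on the U2 snRNA, Snrpa1, read lower in IP RNA (-0.78, limma adjusted p = 0.0348) and was not called. Snrnp27, a protein of the tri-snRNP, was the third gene called higher, at 1.02. That call was lost without IP replicate 2 (0.94), unbound replicate 1 (0.96) or unbound replicate 2 (0.99), each time by the 2-fold threshold.

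The genes called lower in this group were Snrnp70 and Snrnp200. Snrnp70, which encodes the U1 protein that contacts SR proteins, read 7.60, 7.72 and 7.63 in IP and 8.81, 9.37 and 9.32 in unbound RNA, 2.86-fold lower (-1.51 ± 0.16, limma adjusted p = 0.000241). Snrnp200, the U5 helicase that unwinds the U4/U6 duplex, read 8.49, 8.31 and 8.12 against 9.42, 9.53 and 9.50 (-1.17 ± 0.11, limma adjusted p = 0.000136). In both cases the groups were well apart. Of the other U1-specific proteins, Snrpc changed by -0.27 and was not called.

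The LSm proteins form the rings of U6 snRNA and of cytoplasmic mRNA decay, and some members serve elsewhere. Their median change was 0.59, or 1.24 above that of all tested genes, and was negative only with the poly-A scaling (-2.09). Of 11 changes, 8 were positive, that of Lsm12 by way of the detection filter, beside 3366 of all 10581 tested genes. Calls were 1 higher (9.09%, beside 10.4% of all tested genes) and 2 lower (18.2%, beside 41.1%). Only Lsm10, a subunit of the U7 snRNP that processes histone mRNA, was called higher: 8.38 on each IP array against 5.92, 6.26 and 6.21 in unbound RNA, or 4.75-fold (2.25 ± 0.11, limma adjusted p = 7.24e-06). Its IP values were identical, so their spread is no measure of replicate error, and its call goes when such genes are left out. A further 6 LSm genes measured in both groups passed the p threshold with rises under 2-fold: Lsm4 by 0.91, Lsm1 by 0.87, Lsm6 by 0.82, Lsm7 by 0.59, Lsm3 by 0.58 and Lsm8 by 0.46. Rises under 2-fold that passed the p threshold were found for 1226 of all 10581 tested genes. By their brightest probe sets, all 6 LSm genes had every IP value above every unbound value, which was not counted over all genes. Of the dimmer Lsm6 probe sets, one changed by 0.60 and another by -0.66 (limma adjusted p = 0.00597). The latter had every IP value below every unbound value, and the Lsm6 probe sets differed (limma diffSplice adjusted p = 4.45e-06). A dimmer Lsm8 probe set changed by -0.03 with overlapping groups. Lsm12 was below the detection limit on all unbound arrays and was tested only because its IP arrays reached it, so its direction was fixed; it was at least 1.23-fold higher and was not called.

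The LSm genes called lower encode no ring subunit. Lsm14a and Lsm14b are large cytoplasmic proteins of P-bodies that repress translation. Lsm14b read 8.21, 8.91 and 8.88 in IP and 10.27, 10.25 and 10.10 in unbound RNA (-1.54 ± 0.20, limma adjusted p = 0.000601). Lsm14a read 11.41, 11.47 and 11.47 against 13.12, 12.66 and 12.82 (-1.41 ± 0.13, limma adjusted p = 0.000106). Lsm11, the U7 partner of Lsm10, changed by -0.81 and was not called at 2-fold (limma adjusted p = 0.000193). Lsm2 was below the limit on all 6 arrays and was not tested.

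The SF3A and SF3B subunits, which hold the U2 snRNP at the branch point, had a median of -0.26. Of 9 tested genes, 1 was called higher (11.1%, beside 10.4% of all tested genes) and 2 lower (22.2%, beside 41.1%). Sf3b5, a small SF3B subunit, read 10.97, 11.42 and 11.31 in IP and 9.79, 9.97 and 9.95 in unbound RNA, 2.51-fold higher (1.33 ± 0.14, limma adjusted p = 0.000198). In the same complex Sf3b1, the scaffold that grips the branch point duplex, was 3.06-fold lower, at 9.45, 9.60 and 9.31 against 11.24, 10.89 and 11.09 (-1.62 ± 0.13, limma adjusted p = 5.34e-05). Proteins that occur together in one particle thus had transcripts that changed in opposite directions. Sf3a2, which read 8.60, 9.42 and 9.67 in IP and 10.18, 10.66 and 10.40 in unbound RNA, was called lower at -1.18 ± 0.30 (limma adjusted p = 0.0106). IP replicate 1 gave the lowest of these values: without it the change was -0.87, under 2-fold, and without unbound replicate 2 it was -1.06 with a limma adjusted p of 0.051.

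U2AF reads the polypyrimidine tract at the end of an intron, and PTB proteins bind similar tracts to repress exons. U2af2 and U2af1 changed by 0.83 and 0.49 and were not called. Ptbp2, the neuronal PTB, read 9.90, 9.94 and 10.32 in IP and 10.84, 10.50 and 10.64 in unbound RNA, a change of -0.61 ± 0.15 (limma adjusted p = 0.0105) under the 2-fold threshold. Ptbp1, the paralogue that neurons switch off as they mature, was read by its brightest probe set. It was listed at 1.98 on each IP array and at 4.66, 7.08 and 5.95 in unbound RNA. As only 2 arrays reached the limit, Ptbp1 was not tested. Its other probe sets were below the limit on all arrays, at 1.98 and 2.2 in IP and 2.18 to 3.31 in unbound RNA.

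Ptbp3, the third paralogue, was read by its brightest probe set. It was below the limit on every IP array at 3.74, 4.75 and 4.30, and read 6.47, 6.65 and 6.96 in unbound RNA. The other Ptbp3 probe sets were below the limit on all arrays, at 1.98 in IP and 2.17 to 2.25 in unbound RNA. By the brightest one Ptbp3 was at least 3.23-fold lower in IP RNA (limma adjusted p = 0.000294). Such a bound sets the detection limit in place of the dim values. A gene below the limit on all IP arrays was tested only if every unbound array reached it, so the filter fixed this direction. Among tested members, 2 were in that position, Ptbp3 and the U4/U6 protein Prpf4, and the latter was not called.

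The 12 SR and Tra2 genes had a median change of -0.76, with none called higher and 4 (33.3%) called lower, beside 41.1% of all tested genes; the median was slightly positive under both median scalings (0.04 and 0.27) and negative under the others. Tra2b, a splicing activator of neuronal exons, read 10.94, 10.98 and 10.94 in IP and 12.86, 12.66 and 13.05 in unbound RNA, a 3.74-fold fall (-1.90 ± 0.11, limma adjusted p = 1.80e-05). Its paralogue Tra2a changed by -0.58 (limma adjusted p = 0.0206) and was not called. Srsf10, an SR protein that represses splicing when dephosphorylated, read 9.16, 8.0 and 8.19 against 11.06, 9.54 and 9.80 (-1.68 ± 0.49, limma adjusted p = 0.0192). Replicate 1 was the highest in both groups, and the call was lost without IP replicate 2 (-1.45, limma adjusted p = 0.0577) or IP replicate 3 (-1.55, limma adjusted p = 0.0562). Srsf4 fell by 1.61 and Srsf11 by 1.47. By their brightest probe sets, the classical family members Srsf1, Srsf2, Srsf3, Srsf5, Srsf6 and Srsf9 had changes between -0.85 and -0.49 and were not called. Other probe sets were called for some of them: lower in Srsf6 (-1.78 and -1.56) and Srsf1 (-1.78), and higher in Srsf2 (1.36), whose unbound arrays were then all below the limit. With each gene's probe sets averaged, 6 of the 12 SR and Tra2 genes were lower, beside 3179 of all 8794 genes then tested. Srsf12 was the one member with a positive change, 0.39, and its groups overlapped.

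The hnRNPs had the lowest median of the 8 groups, -0.92, or -0.27 relative to all tested genes; it was positive, at 0.11, only when arrays were centred on the median of all probe sets. None of the 19 was called higher and 8 (42.1%) were called lower, beside 41.1% of all tested genes. Hnrnph1, which binds G-rich tracts around exons, read 10.37, 10.42 and 10.42 in IP and 12.78, 12.68 and 12.98 in unbound RNA, a 5.31-fold fall (-2.41 ± 0.10, limma adjusted p = 3.58e-06). That fall belongs to its brightest probe set: a second one changed by -0.70 and was not called (limma diffSplice adjusted p = 1.09e-06). Its relatives Hnrnph2 and Hnrnpf fell by 1.34 and 1.41, and Hnrnph3, at -0.97, missed the 2-fold threshold. Hnrnpul2 read 9.54, 9.41 and 9.41 against 11.39, 11.40 and 11.55, a 3.99-fold fall (-2.0 ± 0.09, limma adjusted p = 4.62e-06). The related Hnrnpu, a nuclear scaffold protein, was 3.89-fold lower and Hnrnpul1 changed by -0.10 with overlapping groups.

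Hnrnpl fell by 1.77, and 1 of its IP arrays reached the detection limit. Hnrnpll and Hnrnpdl fell by 1.32 and 1.33. By their brightest probe sets Hnrnpc changed by 0.16, Hnrnpab by 0.11, Hnrnpa2b1 by -0.46, Hnrnpk by -0.69 and Hnrnpa1 by -0.78, and none of these core hnRNPs was called. Hnrnpc and Hnrnpab had overlapping groups. Other probe sets of the same genes were called: 1 of Hnrnpa1 lower (-1.99), 3 of Hnrnpa2b1 lower (-2.44, -1.84 and -1.27) and 1 of Hnrnpab higher (1.43). With probe sets averaged, 11 of 18 tested hnRNPs were lower, beside 3179 of all 8794 genes then tested.

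The 12 PRPF genes split most widely, from -3.33 to 1.06. Calls were near the shares of all tested genes: 1 higher (8.33%, beside 10.4%) and 5 lower (41.7%, beside 41.1%). Their median of -0.87 turned positive, at 0.16, only with arrays centred on the median of all probe sets. Prpf4b, a kinase of the spliceosome, read 7.35, 7.78 and 6.94 in IP and 11.15, 10.42 and 10.48 in unbound RNA. No IP array came within 2 log2 units of an unbound one, and the 10.1-fold fall was the largest of all tested members (-3.33 ± 0.28, limma adjusted p = 8e-05). Prpf39, a U1-associated protein, read 6.38, 5.28 and 5.39 against 8.81, 8.30 and 8.39, a 7.06-fold fall (-2.82 ± 0.32, limma adjusted p = 0.000314). Prpf38b, Prpf38a and Prpf3 fell by 1.70, 1.35 and 1.21. Prpf31, which holds the tri-snRNP together, was called higher: 9.59, 9.58 and 9.58 against 8.59, 8.59 and 8.38 (1.06 ± 0.09, limma adjusted p = 6.54e-05). Without unbound replicate 3 its change was 0.99, just under 2-fold. Prpf19 and Prpf8, core proteins of the catalytic machinery, changed by 0.02 and -0.60 and were not called.

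**Figure D2:**
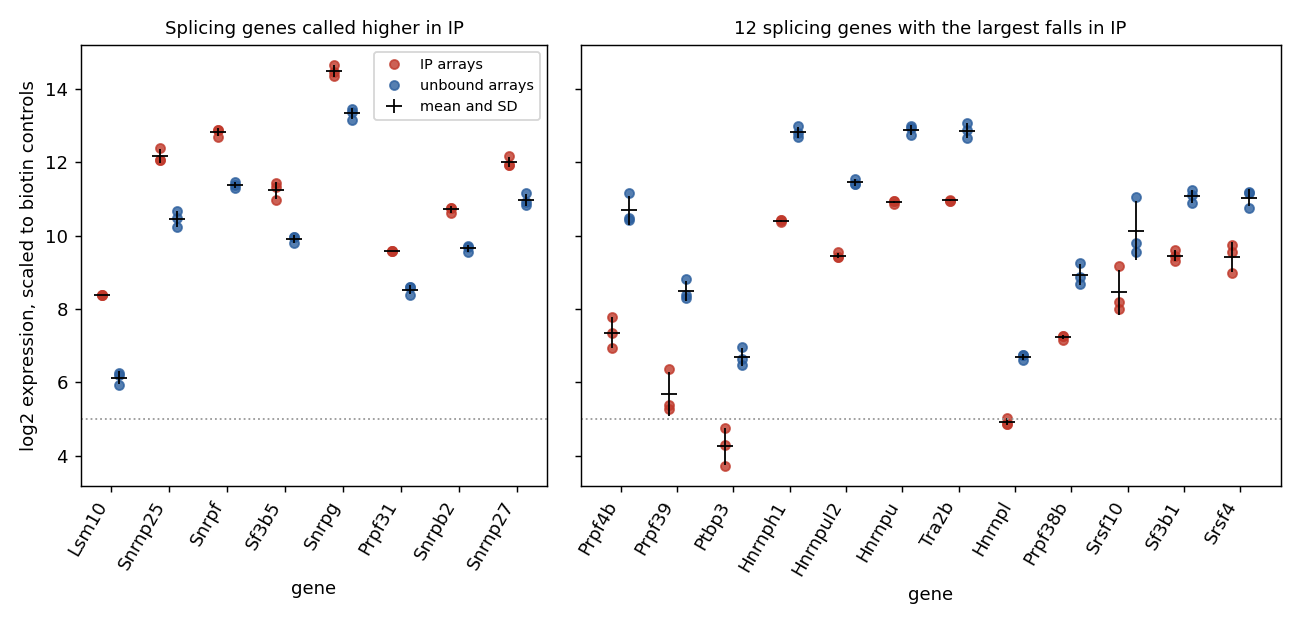
Log2 expression (y axis) on each of the 3 IP (red) and 3 unbound (blue) arrays for the 8 splicing genes called higher and the 12 with the largest falls (x axis), with mean and SD; the dotted line is the detection limit of log2 5. In all 20 genes the 3 IP values lie on one side of the 3 unbound values, and Ptbp3 lies below the limit on every IP array.

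These values come from each gene's brightest probe set, which reads 1 stretch of the transcript, often near its end. Tested one by one, 16 of 186 member probe sets were called higher (8.60%, against 10.4% of all tested probe sets) and 74 lower (39.8%, against 43.0%). Of 49 members with at least 2 tested probe sets, 26 (53.1%) had probe sets whose changes differed (limma diffSplice, adjusted p under 0.05 and at least 2-fold between extremes), against 40.8% of all 4113 such genes. In 12 of the 26, a probe set was below the limit on every IP array. With all 6 arrays required to reach the limit, 17 of 42 members differed (40.5%, against 27.5% of 3005 genes). In such a comparison the scaling constant between groups cancels. A range between extremes can widen with the number of probe sets per gene, and these shares were not matched for that number. Tested members numbered 83 with 186 tested probe sets, and all tested genes 10581 with 16835. In 15 of the 26 the brightest probe set was the one with the highest change, so the choice of probe set bears on the falls and rises above. This was not counted over all genes whose probe sets differed, so it cannot set the members apart from them. The filter bears on it too, as a probe set below the limit on every IP array could only come out lower.

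Prpf31 was the member with probe sets called in both directions. Its brightest probe set rose by 1.06, as given above. The other, which its annotation ties to the RefSeq mRNA, fell by 2.04, from 9.30, 9.41 and 9.33 in unbound RNA to 7.31 on each IP array (limma diffSplice adjusted p = 1.84e-09). The mean of both probe sets changed by -0.49, so the rise of Prpf31 is a statement about 1 probe set.

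Snrnp48, another U11/U12 protein, had the widest range, 6.51. Its brightest probe set changed by 0.09 and a second one by 0.55. The third was listed at 2.02 on each IP array and at 8.38, 7.67 and 7.89 in unbound RNA, at least 7.89-fold lower (limma diffSplice adjusted p = 6.48e-11). With the probe set that fell below the limit left out, the range was 0.45 and the gene was not called.

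For Hnrnpd, an AU-rich element binder, the brightest probe set read 10.25, 10.52 and 10.56 in IP and 10.44, 10.67 and 10.75 in unbound RNA, a change of -0.18. A second one fell by 3.38, from 11.04, 10.65 and 10.91 to 7.62, 7.42 and 7.41, and the last was at least 17.9-fold lower (limma diffSplice adjusted p = 2.27e-09). Read by its brightest probe set Hnrnpd was thus not called, and read by either of the others it was called lower. In Tra2a the brightest probe set changed by -0.58. A second was listed at 2.21 on each IP array and at 7.53, 6.64 and 7.09 in unbound RNA. It was at least 4.24-fold lower (limma diffSplice adjusted p = 1.05e-08). All tested probe sets of Tra2a but the brightest were below the limit on every IP array and so fixed in direction. Without them only the brightest was left, so no comparison could be made. In Srsf11 the 2 brighter probe sets changed by -1.47 and -1.06, and the 2 dim ones were at least 4.38-fold and 4.23-fold lower (limma diffSplice adjusted p = 4.60e-09). Neither dim probe set reached the limit in IP RNA, so both were tested through their unbound values alone and could only fall. With all 6 arrays required to reach the limit, the range in Srsf11 was 0.41. Its probe sets were then not called different (limma diffSplice adjusted p = 0.239).

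The 7 probe sets of Hnrnpdl all had negative changes, from -2.95 to -0.29 (limma diffSplice adjusted p = 1.46e-10). Among the 4 of Hnrnpa2b1 the changes ran from -2.44 to -0.46 (limma diffSplice adjusted p = 7.50e-08), the smallest being that of the brightest. Prpf4b had 5, with changes of -4.91, -3.76, -3.33, -0.86 and -0.33 (limma diffSplice adjusted p = 1.09e-09), so its large fall was not shared by all stretches read. Such differences set stretches of a gene apart and do not by themselves name an isoform. Hybridisation controls for transcript ends showed a 3′ minus 5′ difference of 2.74 to 2.92 for Gapdh in IP and 2.92 to 2.99 in unbound RNA. For beta-actin it was 3.68, 5.04 and 4.69 in IP against 3.95 to 4.09 in unbound RNA, and the part of this in the probe set differences was not tested.

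**Figure D3:**
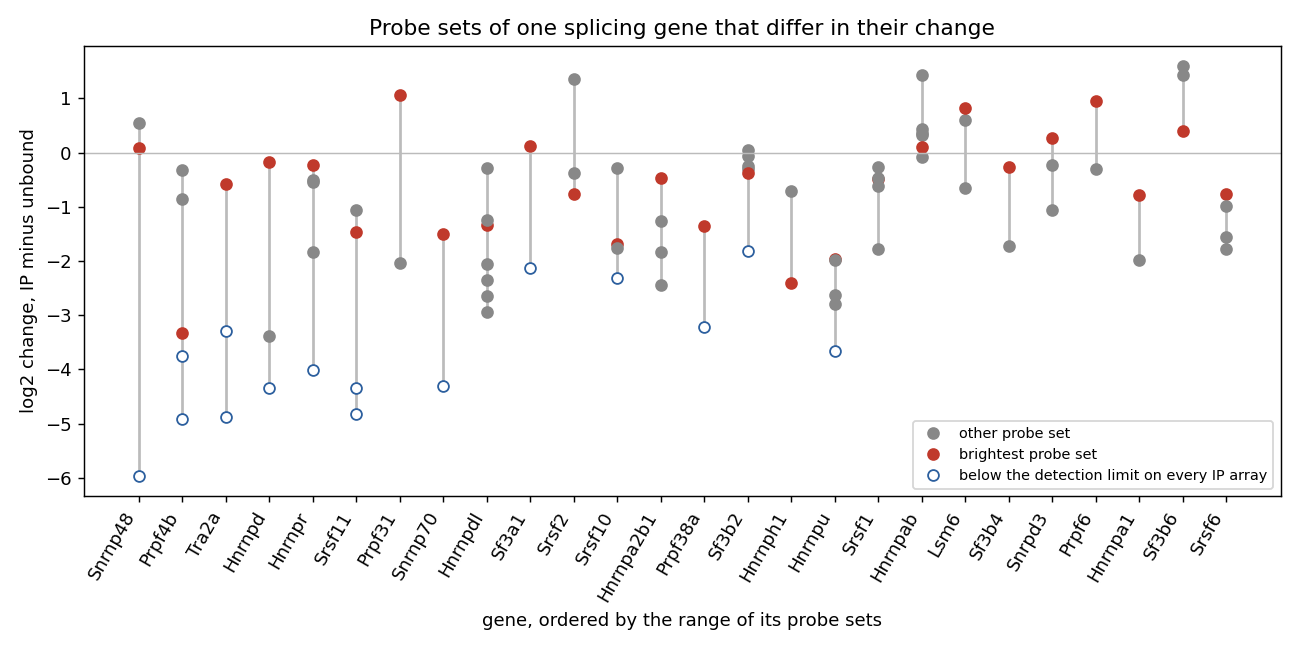
Log2 change from unbound to IP RNA (y axis) of every tested probe set in the 26 splicing genes whose probe sets differed (x axis, by range); red marks the brightest probe set, and open circles those below the detection limit on every IP array. Snrnp48 has the widest range, 6.51, and Prpf31 has called probe sets on both sides of 0.

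Genes that work with these families, on lists written by function, were read in the same fit. In the SMN complex, which loads Sm rings onto snRNAs, 1 of 10 tested genes was called higher (10%, beside 10.4% of all tested genes) and 2 lower (20%, beside 41.1%), with a median of -0.10. Gemin7 read 9.0, 8.90 and 8.91 in IP and 7.03, 7.60 and 7.18 in unbound RNA, 3.17-fold higher (limma adjusted p = 0.000128). Gemin5, the subunit that recognises snRNAs, read 3.73 on each IP array, below the limit, so the filter fixed its direction. It was at least 2.01-fold lower (limma adjusted p = 3.19e-06), and the helicase Ddx20 fell by 1.07.

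Of 41 other spliceosome proteins, 1 was called higher (2.44%) and 10 lower (24.4%, beside 41.1% of all tested genes), with a median of -0.46. Bcas2, a subunit of the complex around Prpf19, read 13.45, 13.13 and 13.17 in IP and 10.91, 10.74 and 10.89 in unbound RNA, 5.29-fold higher (limma adjusted p = 6.57e-06). Rbm25 fell by 1.98 and Crnkl1, another protein of that complex and below the limit on every IP array, was at least 1.36-fold lower.

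Among the 8 kinases that phosphorylate SR proteins, 3 were called lower (37.5%, beside 41.1% of all tested genes) and none higher. Their median of -0.65 was that of all tested genes. Clk4 was at least 3.77-fold and Srpk3 at least 3.62-fold lower, with each below the limit on every IP array and so fixed in direction by the filter, and Clk1 fell by 1.88. Proteins of the exon junction complex, of nonsense-mediated decay and SR-related proteins gave 6 of 11 lower (54.5%, beside 41.1% of all tested genes) and none higher, with a median of -1.20. Smg1, the decay kinase, was listed at 4.35 on each IP array and at 9.38, 8.78 and 8.99 in unbound RNA, at least 16.6-fold lower (limma adjusted p = 1.70e-06). Its IP values were below the limit, so the filter fixed this direction too. Pnn, an SR-related nuclear speckle protein, fell 5.79-fold.

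Other RNA-binding splicing regulators gave 11 of 26 lower (42.3%, beside 41.1% of all tested genes) and none higher, with a median of -0.71. Of the 11, Raly and Khdrbs2 were below the limit on every IP array and so fixed in direction. Tia1, which activates weak splice sites by recruiting U1, read 5.62, 5.26 and 5.21 in IP and 9.43, 8.84 and 8.79 in unbound RNA, 12.6-fold lower (limma adjusted p = 1.47e-05). Syncrip, an hnRNP-like protein also found in transport granules, fell 3.72-fold. Over these 5 lists together, 2 of 96 tested genes were called higher (2.08%, beside 10.4% of all tested genes) and 32 lower (33.3%, beside 41.1%). With all 6 arrays required to reach the limit, 25 were lower, beside 2872 of all 8692 genes then tested.

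Because the authors normalised IP and unbound arrays separately, the number of calls rests on the constant set between them. Between scalings the median of all tested genes moved from -3.37 (poly-A spike controls) through -0.65 (the hybridisation controls used here), -0.41 (none), 0.04 (quantile) and 0.20 (median of expressed probe sets) to 0.44 (median of all probe sets). Calls among members moved with it, as did those of all tested genes. Without scaling 14 members were higher and 21 lower, beside 1500 and 3746 of all 10640 tested genes. Quantile normalisation gave 15 and 17, beside 2507 and 2479 of 10528. The expressed median gave 24 and 7, beside 2887 and 2481 of 10567. The median of all gave 30 and 4, beside 3581 and 2057 of 10548. The poly-A controls gave 0 and 80, beside 35 and 9992 of 10293. With no scaling or with either median, all 8 genes called higher kept that call. Quantile normalisation kept it for 7 of them, and the poly-A controls for none, with 6 then called lower. Relative to the all-gene median of the same scaling, the Sm core stood 1.37 to 1.48 higher under 5 of the 6 and 0.69 higher under quantile normalisation. For the LSm genes this was 1.18 to 1.28 and 0.87. The hnRNP median lay below the all-gene median under all 6 scalings, at -0.57 to -0.22 relative to it.

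**Figure D4:**
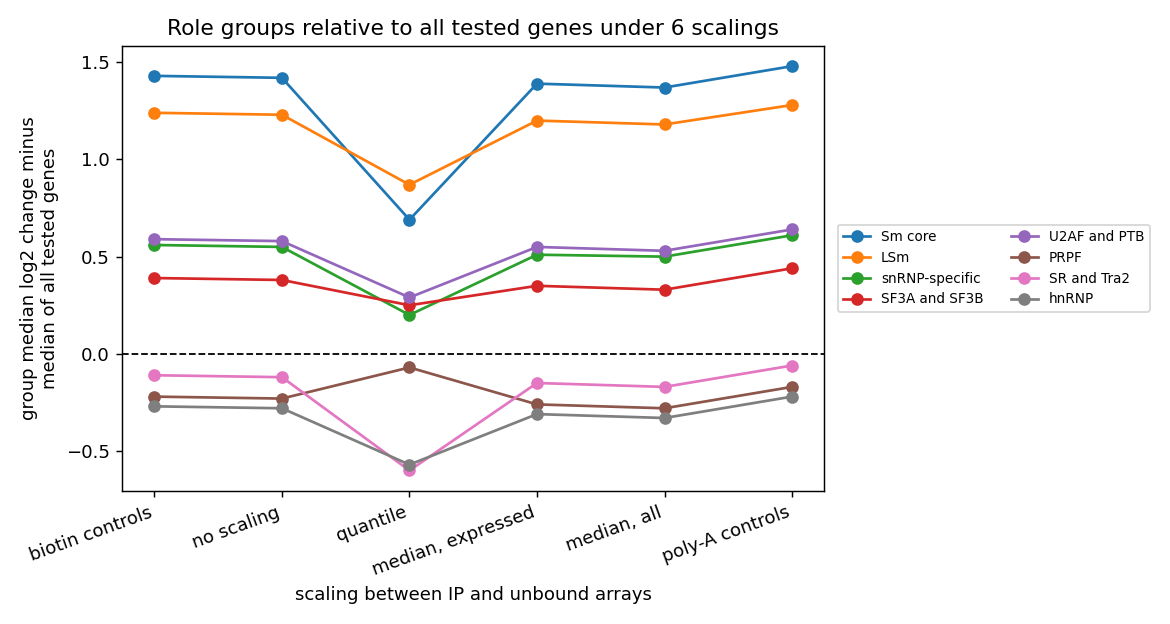
Median log2 change of each role group minus the median of all tested genes (y axis) under 6 ways of scaling IP to unbound arrays (x axis). Sm core and LSm genes stay highest throughout, from 0.69 to 1.48, and SR, PRPF and hnRNP medians stay below 0.

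Genomic span, the distance from a gene's first to its last base, played no part in the choice of members. The 83 tested members had a median genomic span of 14.5 kb on GRCm38.p6, against 25.8 kb for all tested genes. Members called higher had a median of 7.0 kb, those not called 16.3 kb and those called lower 20.4 kb. Sf3b5 spans 0.734 kb and Lsm10 spans 2.02 kb, while Prpf39 spans 27.1 kb and Prpf4b 31.2 kb. Across the 83 members the change had a Pearson r of -0.29 with log10 span and a Spearman rho of -0.26. Over all tested genes the values were -0.30 and -0.33, so longer genes tended to lower changes across the array. Genes are not independent replicates, all points share the same 6 arrays, and no test was made. Without the Sm core and LSm genes, 66 members gave -0.25 and -0.13.

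**Figure D5:**
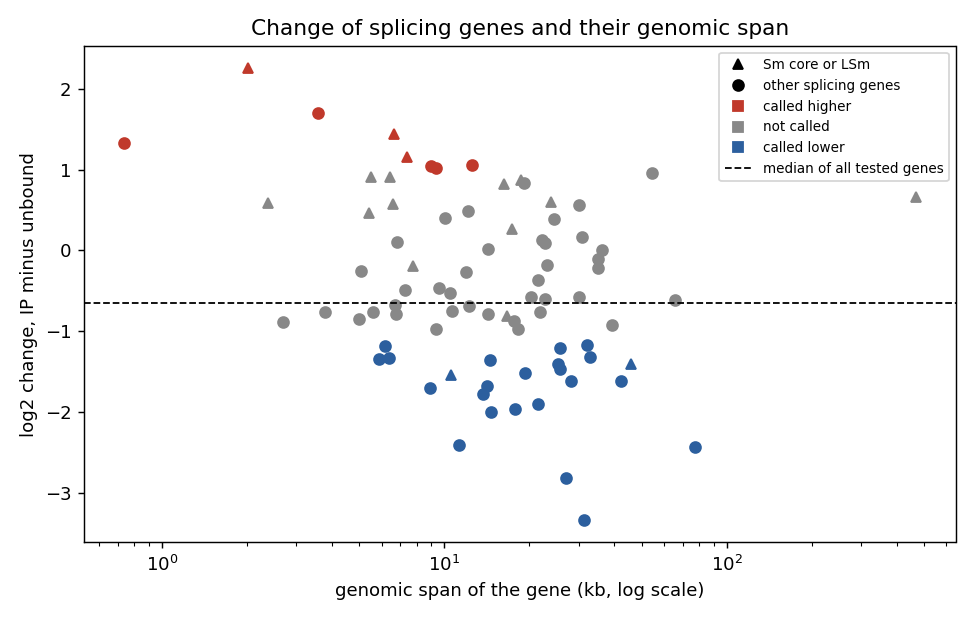
Log2 change from unbound to IP RNA (y axis) against genomic span in kb (x axis, log scale) for the 83 tested splicing genes, with Sm core and LSm genes as triangles; colours give the call. Members called higher span at most 12.5 kb, with a median of 7.0 kb, and members called lower have a median of 20.4 kb.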

How the data were processed

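The deposited log2 values, 45101 on each of 6 arrays, were made by the authors with GCRMA within each group, per the submitters' processing notes and the series' design text; no version is named there. Input was 20 ng of RNA in a two-cycle amplification, per the labels' protocols. Replicates are separate pools of mice. No counts lie behind the values, and the 3 arrays per group limit the precision.

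Following the design text, -0.23 was added to all IP values, the group difference over 18 biotinylated hybridisation controls. Genes were named from the platform annotation and read by their brightest single-symbol probe set (231 member probe sets; 17 more that also name another gene were not used). Genes that reached log2 5 on at least 3 of the 6 arrays were tested. Tests were limma lmFit and eBayes and limma diffSplice (limma 3.58.1, R 4.3.3) with Benjamini-Hochberg adjustment, tested on simulated data. Of the tested members, 9 had identical values on all 3 IP arrays, which lowers their spread, 20 were read by probe sets that can match several transcripts (_s_at or _x_at), and 25 have spans that overlap another gene, whose RNA the array may not separate. Sums of markers are log2 of summed linear values. Promoters and spans come from RefSeq (GRCm38.p6), which matched 83 tested members for spans.

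The members and lists were chosen with earlier results of these data known. Genes given with full values were, per role group, the up to 2 called highest and 2 called lowest, always Snrpn, Snrpb and Ptbp1 to Ptbp3, the 8 members with the smallest diffSplice p, and up to 2 each way per further list. Other members and Clk1 were named after their values were seen.

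Per the labels, unbound samples carry the replicate number of the IP sample they came from, so the numbers pair the samples. Same-numbered samples deviated together with correlations of 0.27, 0.16 and 0.10, and IP replicate 3 correlated with unbound replicate 2 at 0.21. The alternatives tried were 5 other scalings, filters on low values, the choice of probe set, the pairs as a block, leaving out each replicate and, added after seeing the data, leaving out genes with identical values.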

Additional observations from a re-analysis of the deposited data

How the results depend on the processing

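Counts of called members depend on the constant set between the separately normalised groups, which these arrays do not settle, and the probe set chosen decides some genes. With the replicate pairs as a block, the counts stayed at 8 higher and 24 lower, and no named gene changed its call. Without any filter, with either stricter filter or without probe sets ending _s_at or _x_at, 8 members were called higher and 22 to 25 lower. Member counts, higher and lower, were 14 and 21 without scaling, 15 and 17 with quantile normalisation, 24 and 7 with the expressed median, 30 and 4 with the median of all, and 0 and 80 with poly-A controls. The counts of all tested genes, given with the scalings above, moved in the same way. Averaging a gene's probe sets left 5 members higher, beside 889 of all 8794 genes then tested. Testing each probe set gave 16 and 74. For the 5 further lists together (2 higher, 32 lower), the higher count was 4 without scaling. Higher and lower counts were 11 and 18 with quantile normalisation, 15 and 12 with the expressed median, 27 and 5 with the median of all, 0 and 95 with poly-A controls, and 5 and 86 by single probe set. Members whose probe sets differed numbered 17 with all 6 arrays at the limit and 15 with a limit of log2 7. Leaving out each replicate gave 7 to 9 members higher, 23 to 27 lower, 2 other genes higher, 29 to 32 lower, 23 to 26 members whose probe sets differed, and a Slc6a4 change of 5.09 to 5.2.

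Signs turned as follows. Without scaling, Snrpb was 0.04 and Hnrnpd 0.06; with quantile normalisation Hnrnpd was 0.14 and Ddx20 0.17. With the expressed median, Snrpb was 0.61, Ptbp2 0.20, Hnrnpd 0.63, Tra2a 0.22 and Hnrnpa2b1 0.34, and with the median of all 0.84, 0.42, 0.85, 0.45 and 0.57. With poly-A controls, Sf3b5 was -1.35, Snrpf -1.24, Snrpg -1.52, Snrnp25 -0.97, Snrpb2 -1.62, Lsm10 -0.43, Prpf31 -1.61, Snrpn -2.02, Snrnp48 -2.59, Gemin7 -1.01 and Bcas2 -0.27. With the mean of probe sets Prpf31 was -0.49 and Snrnp48 -1.56. With 1 replicate left out, Snrnp48 ranged from -0.03 (without IP replicate 2 or 3) through -0.01 (without unbound replicate 1) to 0.33. A scaling shifts every gene alike, except the quantile one; the cause of the other turns was not tested. With genes of identical values left out, 7 members were higher and 23 lower.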
